A study of Mus musculus with 8 samples.

Results

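Transcript levels of 7 genes through which cells respond to insulin, insulin-like growth factor (IGF) and growth hormone were compared between adhesion-related macrophages (ARMs) and stromal vascular fraction macrophages (SMs) of mouse epididymal white adipose tissue (eWAT). The genes were taken by name from the deposited tables: the receptors Insr, Igf1r and Ghr, the receptor substrates Irs1 and Irs2, the glucose transporter Slc2a4 and the phosphodiesterase Pde3b. All 7 were found among the 18040 genes listed in either table, and all 7 passed the filter on low counts in both diets. They were chosen by what they do and not by their values, although earlier results of these data were known when the set was made.

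The mice were wild-type (WT) male C57BL/6J animals, kept on chow diet (ND) or fed a high-fat diet (HFD) for 8 weeks from an age of 6 weeks. ARMs were released from the washed layer of floating adipocytes left after collagenase digestion, SMs came from the pelleted stromal vascular fraction (titled NARM in the labels), and both were sorted by flow cytometry. The study defines adipose tissue macrophages as CD45+ CD11b+ F4/80+ cells, but the markers used in the sort for these libraries are not spelled out in the sources used here. Each of the 4 groups (ND SM, ND ARM, HFD SM and HFD ARM) had 2 RNA-seq libraries, each made from a pool of 6 mice on HFD or 10 mice on ND. The p-values therefore measure the spread between pools and not between single mice, and whether an ARM and an SM library came from the same mice is not given in the sources used here. Values below are estimated read counts, TPM (a share of all transcripts, scaled for gene length) and CPM (a share of all counts, not scaled for length), and totals were 18288775 to 19040133 counts for the HFD libraries and 14508824 to 16319038 for the ND libraries.

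Insulin and IGF-1 bind a pair of closely related receptor tyrosine kinases, which phosphorylate the IRS adaptors and so recruit PI3K and AKT. In adipocytes this signal moves the glucose transporter GLUT4, the product of Slc2a4, to the cell surface, and activates PDE3B, which breaks down cAMP and thereby restrains lipolysis. Growth hormone acts through a separate cytokine-type receptor that signals by JAK2 and STAT5, and in adipose tissue it opposes several actions of insulin.

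Of the 7 genes, only Ghr rose in ARMs by the call used here, in HFD mice (4.50-fold) and in ND mice (2.04-fold). The insulin and IGF-1 receptors and Pde3b had intervals that spanned no change and left out 1.5-fold in both diets, Irs2 was slightly below the SM level on HFD without passing the fold limit, and the scarce Irs1 and Slc2a4 transcripts had values above SM that did not pass the test. A call needed a difference of more than 1.5-fold together with an adjusted p below 0.05 in the quasi-likelihood test of edgeR, with the adjustment of Benjamini and Hochberg made over all genes tested. By this rule 1 of the 7 was called higher on HFD, where 4.46% of 13337 genes were called higher and 0.292% lower, and 1 of the 7 on ND, where 3.55% of 12441 genes were called higher and 0.129% lower. The median log2 fold change of the 7 was 0.07 on HFD and 0.09 on ND, against -0.01 and -0.02 over all genes tested.

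**Figure D1:**
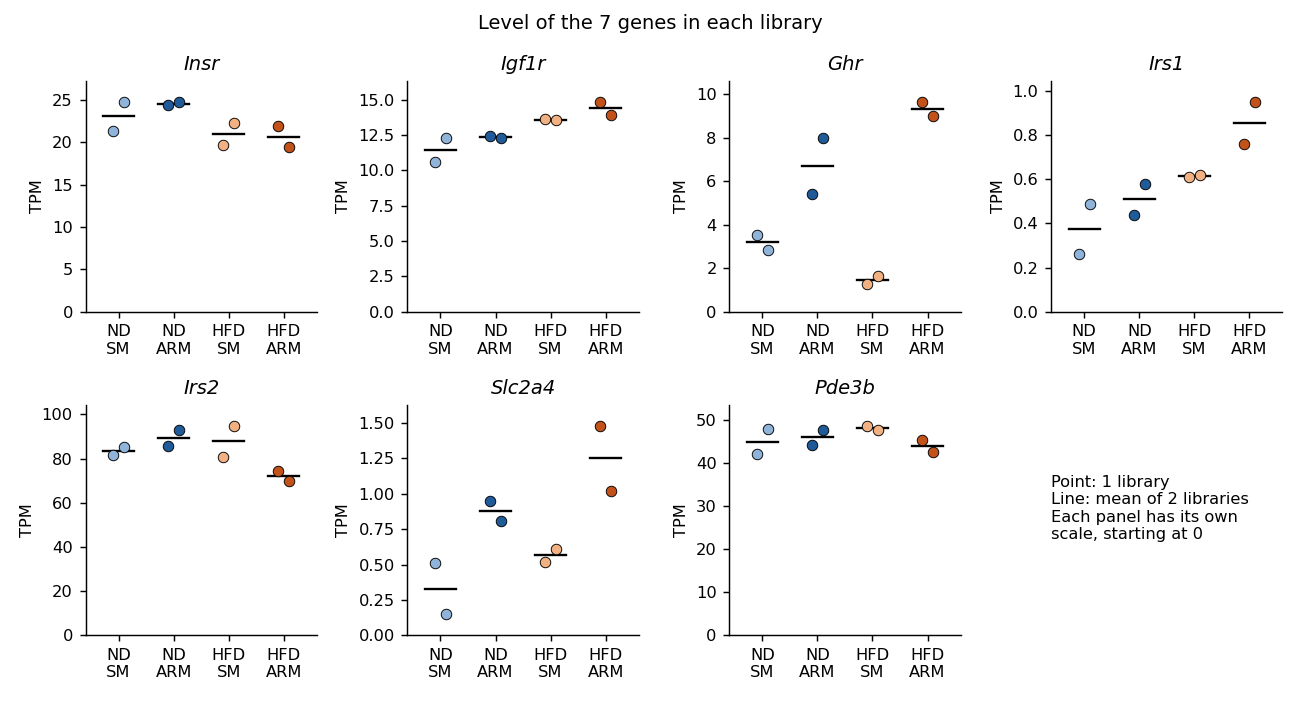
TPM of the 7 genes in each library, with 1 panel per gene and a scale of its own from 0. Points are libraries of ND SM, ND ARM, HFD SM and HFD ARM, and lines are means of 2 libraries. The ARM libraries of Ghr lie above the SM libraries in both diets, while those of Insr, Igf1r, Irs2 and Pde3b lie close to them.

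Ghr (Entrez 14600) encodes the growth hormone receptor and lies on the minus strand at chr15:3317755-3583352 of GRCm38, the assembly also called mm10. Its annotation in GENCODE holds 5 protein-coding transcripts, from 0.898 to 4.17 kb long. RefSeq gives it 2 starts in the promoter table used here, and the 250 bases upstream of each are printed because Ghr is the member that was called and because its transcripts begin at more than 1 place. Capitals mark the letters of a CCAAT box (CCAAT), a GC box (GGGCGG) or a TATA box (TATAAA), read on either strand.

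Ghr start 1, chr15:3583353-3583602, minus strand: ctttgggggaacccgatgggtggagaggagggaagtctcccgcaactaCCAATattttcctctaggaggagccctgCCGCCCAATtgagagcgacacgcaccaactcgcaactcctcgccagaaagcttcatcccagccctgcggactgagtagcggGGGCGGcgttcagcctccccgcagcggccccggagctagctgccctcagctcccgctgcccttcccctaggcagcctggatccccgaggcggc
Ghr start 2, chr15:3581843-3582092, minus strand: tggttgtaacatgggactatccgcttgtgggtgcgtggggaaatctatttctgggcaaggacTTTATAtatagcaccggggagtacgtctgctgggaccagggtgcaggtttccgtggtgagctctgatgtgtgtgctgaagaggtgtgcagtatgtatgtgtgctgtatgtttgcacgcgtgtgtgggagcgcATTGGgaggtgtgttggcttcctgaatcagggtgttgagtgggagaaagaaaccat

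The sequence before the first Ghr start had a GC content of 65.6% with 17 CpG sites, and that before the second had 52.0% with 8 CpG sites. The median over 32851 RefSeq mouse promoters was 52.4%. Before the first start there were 2 CCAAT boxes and 2 GC boxes, and 1 of each share letters with the other. The second had 1 CCAAT box and 1 TATA box, both on the strand opposite to the gene. The same letters occur in 33.8% (CCAAT), 32.7% (GGGCGG) and 12.4% (TATAAA) of all promoters. A STAT site (TTCNNNGAA, in 7.02% of promoters) and a nuclear receptor half-site (AGGTCA, in 14.0%) were searched too and had no match in these windows.

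On HFD, Ghr had 45 and 50 counts in the SM libraries and 208 and 214 in the ARM libraries. Both ARM libraries stood far above both SM libraries, and replicates of a group lay close together. The fitted log2 fold change was 2.17 (SE 0.16, 95% interval 1.82 to 2.52), a 4.50-fold difference (3.53 to 5.75), with an adjusted p of 3.3e-05 (edgeR, quasi-likelihood). It kept its call in all 13 alternative settings, with log2 fold changes from 2.07 to 2.25. Among these, the threshold of the study's methods (log2 fold change beyond 0.6, unadjusted p under 0.05) used the same fit and could not have ended it.

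On ND, Ghr had 63 and 56 counts in the SM libraries and 104 and 138 in the ARM libraries. The groups again did not overlap, but the SM libraries began higher and the ARM libraries lower than in the HFD table. The log2 fold change was 1.03 (SE 0.24, 95% interval 0.52 to 1.55), or 2.04-fold (1.43 to 2.92), with an adjusted p of 0.0218 (edgeR, quasi-likelihood). The ND call rested on single libraries: without ND ARM replicate 2 the log2 fold change was 0.71 with an edgeR adjusted p of 0.288, and without ND SM replicate 2 it was 0.91 with 0.102. It was also lost with DESeq2 (1.04, adjusted p 0.0689) and with limma on log2(TPM + 1) (0.86, adjusted p 0.0632), so that 4 of 13 alternatives ended it and none turned its direction.

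The ARM to SM change of Ghr was larger on HFD by 1.13 on the log2 scale (SE 0.30, 95% interval 0.48 to 1.78), but this difference did not pass the test, with an adjusted p of 0.209 and an unadjusted p of 0.00239 (edgeR, quasi-likelihood). Without ND ARM replicate 2 it was 1.45 and passed, with an adjusted p of 0.0418 in the same edgeR test. With all 8 libraries, none of the 7 genes was called by edgeR or DESeq2 for a difference between diets. Over all genes, edgeR called 22 of 13358 (0.165%), and DESeq2 called more. Of the 7, 2 (Ghr and Irs2) had an unadjusted edgeR p under 0.05.

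**Figure D2:**
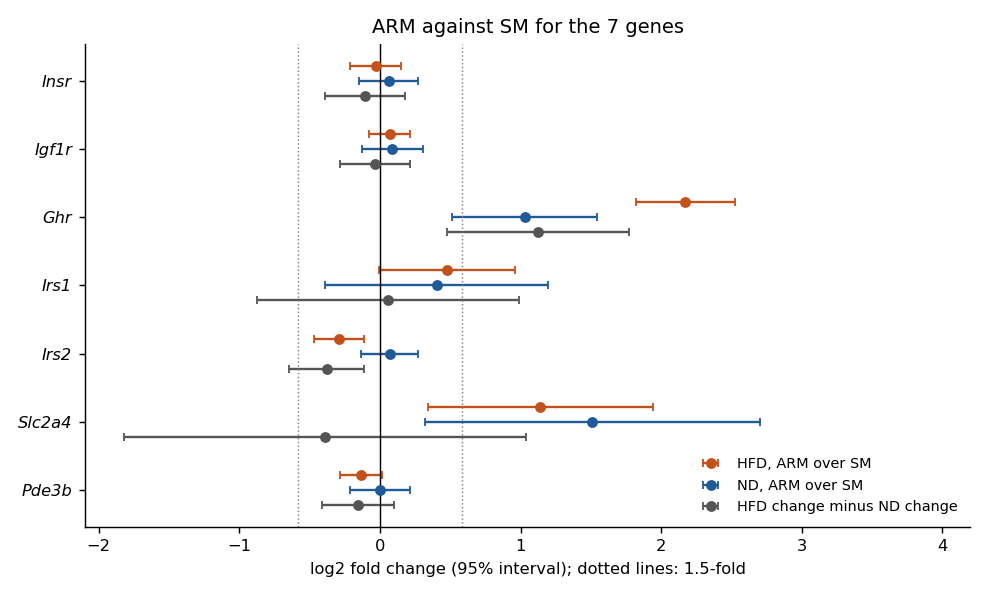
Log2 fold change of ARM over SM for each of the 7 genes, with 95% intervals, on HFD and on ND, and the HFD change minus the ND change. Dotted lines mark 1.5-fold. The intervals of Ghr lie above 0 in both diets (1.82 to 2.52 and 0.52 to 1.55), and those of Insr and Igf1r span 0.

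By TPM the HFD difference of Ghr was wider than by counts. The TPM of Ghr was 1.28 and 1.65 in HFD SM and 9.65 and 8.99 in HFD ARM, a ratio of means of 6.36, while on ND it was 3.55 and 2.83 in SM and 5.41 and 8.01 in ARM, a ratio of 2.10. TPM divides by a transcript length that the counting program estimates for each library, and that length can be recovered from the count and the FPKM, which is scaled for length and depth. For Ghr it was 3.94 and 3.46 kb in the HFD SM libraries, 2.51 and 2.76 kb in the HFD ARM libraries, and 2.42 to 2.60 kb in the 4 ND libraries. The HFD SM libraries thus stood apart from the other 6. For Irs2 the implied length was 4.05 kb in all 4 HFD libraries, and for Insr it was 9.48 to 9.50 kb. GENCODE gives Irs2 only 1 transcript and Insr 2 protein-coding ones, so their lengths had less room to differ than that of Ghr. Slc2a4, with 5 protein-coding transcripts as for Ghr, had 2.84 to 2.86 kb on HFD. On ND, Slc2a4 had 2.15 and 2.71 kb in SM and 2.40 and 2.54 kb in ARM, from 3 to 18 counts. Only 45 and 50 counts stand behind the HFD SM lengths of Ghr. The transcripts used in the counting are not given in the sources used here, and the difference in length was not tested.

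**Figure D3:**
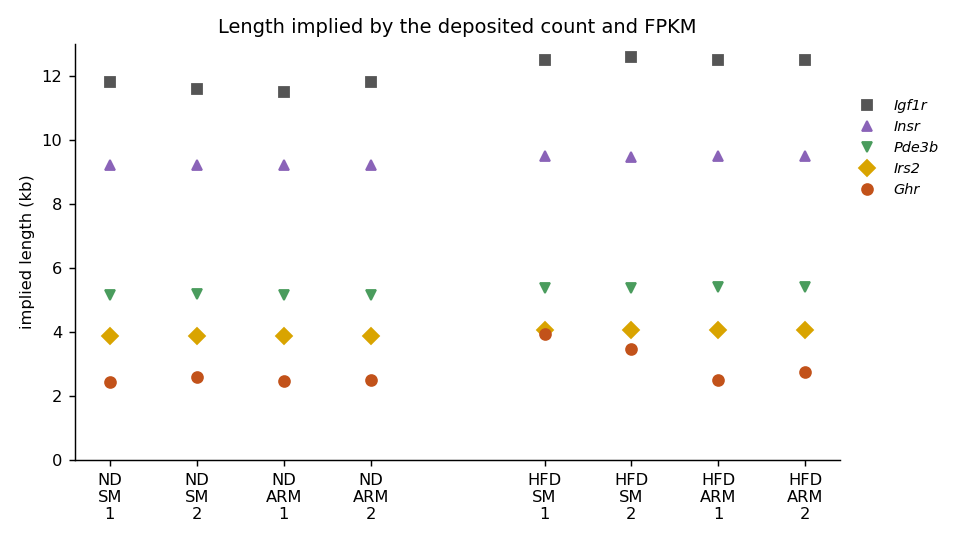
Transcript length in kb implied by the deposited count and FPKM of Ghr, Irs2, Pde3b, Insr and Igf1r in each of the 8 libraries. Ghr lies at 3.46 and 3.94 kb in the HFD SM libraries and between 2.42 and 2.76 kb in the other 6, while the other genes shown are level within each diet. Slc2a4 and Irs1 are not shown.

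Adipocyte marker genes moved in the same direction as Ghr in these libraries. All 13 adipocyte markers tested were called higher in ARMs on HFD (median log2 fold change 2.53), and 10 of 12 on ND (median 1.32), while DESeq2 called 11 of 13 and 5 of 12. Their summed level was 57.0 and 58.0 CPM in HFD SM, 323 and 339 CPM in HFD ARM, 108 and 139 CPM in ND SM and 221 and 374 CPM in ND ARM, with no marker at 0 in all libraries of a diet. ND ARM replicate 2 held the highest of the ND sums. It also had the highest ND sums for markers of fibroblasts and progenitors (790 CPM), endothelium (77.2), mesothelium (47.6), and pericytes and smooth muscle (49.4). Without this library the ND call of Ghr was lost, and calls over all genes on ND were at their fewest. The Ghr call was also lost without ND SM replicate 2, which held the higher ND SM sum of adipocyte markers but the lower Ghr level (3.52 against 4.25 CPM). None of the 9 macrophage markers, Adgre1 and Csf1r among them, was called in either diet by edgeR or DESeq2, with 4 on HFD and 1 on ND at an unadjusted edgeR p under 0.05. Their summed level was 13000 to 15900 CPM in every library. Endothelial markers were called higher for 8 of 9 on HFD and 1 of 9 on ND, those of pericytes and smooth muscle for 4 of 7 and 2 of 6, and those of lymphatic endothelium for 3 of 5 in each diet. Fibroblast and progenitor markers were called higher for 5 of 8 on HFD (summed level 355 and 319 CPM in SM, 471 and 585 in ARM) and 6 of 8 on ND, and mesothelial markers for 0 of 6 on HFD, by edgeR or DESeq2 and with 1 at an unadjusted edgeR p under 0.05, and 5 of 6 on ND. No T, NK or B cell marker was called among the 3 tested in each diet by edgeR or DESeq2, and none had an unadjusted edgeR p under 0.05. Of 2 neutrophil markers, 1 was called lower on ND and 0 on HFD. The part of RNA from these other cells in the Ghr result was not tested, and in bulk samples more cells of a type and more RNA per cell cannot be told apart.

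Set against the adipocyte hormone Adipoq, Ghr gave different proportions by TPM and by CPM. Its TPM was 31.4% and 38.1% of that of Adipoq in HFD SM and 34.7% and 26.9% in HFD ARM, so that these groups overlapped. By CPM, which is not scaled for length, it was 102% and 109% in HFD SM and 71.5% and 61.1% in HFD ARM, and the ARM libraries lay below. The fitted rise on HFD was 4.50-fold for Ghr and 7.22-fold for Adipoq. On ND the TPM proportions were 60.0% and 28.9% in SM and 34.1% and 27.8% in ARM, and the CPM proportions 134% and 69.1% in SM and 77.6% and 64.2% in ARM. ND SM replicate 1 stood above the other 7 libraries on both scales. For Irs1 the proportion was 15.0% and 14.3% of the Adipoq TPM in HFD SM and 2.73% and 2.84% in HFD ARM.

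Among 12343 genes tested in both diets, the 3 whose profile over the 8 libraries was most like that of Ghr were Hp, Lgals12 and Timp4. Likeness was the root mean square difference in log2 CPM, centred within each diet, and was 0.123 for Hp, 0.148 for Lgals12 and 0.175 for Timp4. Hp encodes haptoglobin, the hemoglobin-binding plasma protein, and its TPM was 6.35 and 5.33 in HFD SM, 23.3 and 26.5 in HFD ARM, 20.5 and 18.1 in ND SM and 35.9 and 49.6 in ND ARM. Lgals12 encodes a galectin known from fat cells, with 0.24 to 0.27 TPM in HFD SM and 1.08 to 1.14 in HFD ARM. Timp4 encodes an inhibitor of matrix metalloproteinases, with 1.22 to 1.48 TPM in HFD SM and 5.62 to 7.05 in HFD ARM. All 3 were called higher on HFD, and Hp was also called on ND. Since they were picked by likeness to Ghr in these same libraries, fold changes near those of Ghr follow from the choice.

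**Figure D4:**
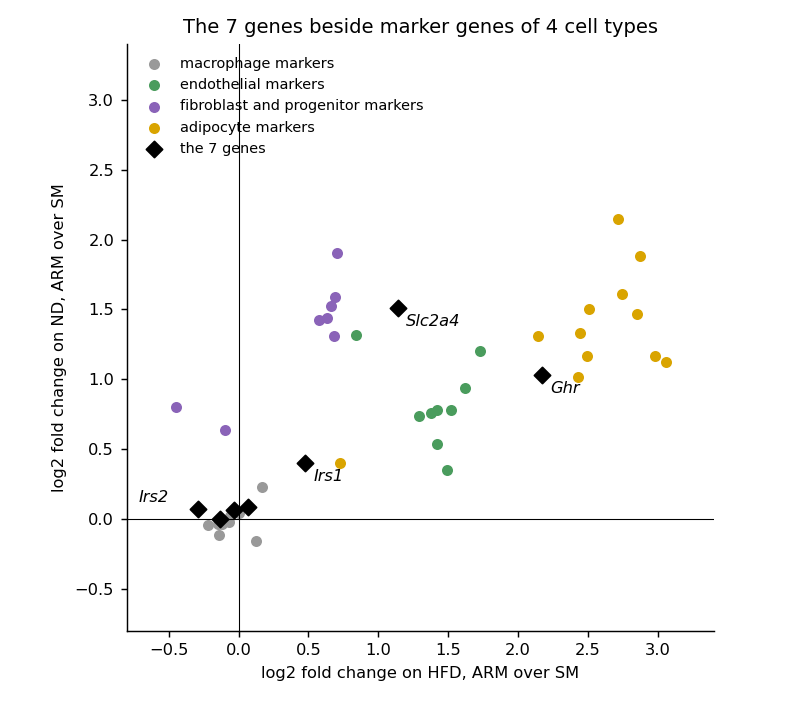
Log2 fold change of ARM over SM on HFD (x axis) and on ND (y axis) for the 7 genes (black diamonds) and for marker genes of adipocytes, endothelial cells, fibroblasts and progenitors, and macrophages. Ghr (2.17, 1.03) lies at the edge of the adipocyte markers, Irs1 (0.48, 0.40) lies nearest of these to Aqp7 (0.73, 0.40), Slc2a4 is at 1.14 and 1.51, and the other 4 lie near 0 with the macrophage markers.

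Insr (Entrez 16337, chr8:3150922-3279649, minus strand) encodes the insulin receptor, and Igf1r (Entrez 16001, chr7:67952257-68233668, plus strand) the IGF-1 receptor. Insr had 19.7 and 22.2 TPM in HFD SM, 21.9 and 19.4 in HFD ARM, 21.4 and 24.8 in ND SM and 24.4 and 24.7 in ND ARM. The SM and ARM libraries overlapped in both diets. For Insr the log2 fold change was -0.03 on HFD (95% interval -0.21 to 0.15) and 0.06 on ND (-0.15 to 0.27), with edgeR adjusted p of 0.878 and 0.85, so a change of 1.5-fold lies outside both intervals.

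Igf1r had 13.6 and 13.6 TPM in HFD SM, 14.8 and 13.9 in HFD ARM, 10.6 and 12.3 in ND SM and 12.4 and 12.3 in ND ARM. The HFD groups did not overlap, though the gap was small beside the levels. For Igf1r it was 0.07 on HFD (95% interval -0.08 to 0.21) and 0.09 on ND (-0.13 to 0.30), with edgeR adjusted p of 0.604 and 0.788. These intervals, too, leave out a 1.5-fold change. Insr was the more abundant of the related receptors in each library, at 1.39 to 1.64 times the TPM of Igf1r on HFD and 1.96 to 2.02 times on ND.

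Irs1 (Entrez 16367, chr1:82233105-82291439, minus strand) and Irs2 (Entrez 384783, chr8:10984681-11008929, minus strand) encode the adaptors that carry the signal from these receptors. Irs2 was by far the more abundant, at 73.5 to 314 times the TPM of Irs1 over the 8 libraries. Irs2 had 80.9 and 94.9 TPM in HFD SM and 74.5 and 69.8 in HFD ARM, and the ARM libraries lay below the SM libraries without overlap. The log2 fold change of Irs2 on HFD was -0.29 (SE 0.08, 95% interval -0.47 to -0.11), or 0.816-fold, with an adjusted p of 0.0468 (edgeR, quasi-likelihood). It was not called, since the fold change lay inside the 1.5-fold limit, as did the whole interval. Over the alternative settings the log2 fold change ran from -0.392 to -0.183. With no library left out, the adjusted p ran from 0.0314 (DESeq2) to 0.202 (edgeR, no filter).

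On ND, Irs2 had 81.5 and 85.5 TPM in SM and 85.5 and 93.0 in ARM, with a log2 fold change of 0.07 (95% interval -0.13 to 0.27, edgeR adjusted p 0.83). The difference between diets was -0.38 on the log2 scale (95% interval -0.64 to -0.11), with an adjusted p of 0.358 (edgeR, quasi-likelihood). Thus no change between diets was shown for Irs2.

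Irs1 was scarce, with 50 and 50 counts in HFD SM, 61 and 76 in HFD ARM, 17 and 34 in ND SM and 31 and 36 in ND ARM. The HFD ARM libraries lay above the HFD SM libraries and the ND groups overlapped. On the log2 scale the fold change of Irs1 was 0.48 on HFD (95% interval -0.01 to 0.96, edgeR adjusted p 0.223) and 0.40 on ND (-0.39 to 1.20, edgeR adjusted p 0.713). Both intervals include no change as well as a 1.5-fold rise. GENCODE annotates genes on the opposite strand that overlap part of Insr, Irs1 and Irs2, and whether reads were counted by strand is not given in the sources used here.

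Slc2a4 (Entrez 20528, chr11:69942286-69948216, minus strand) encodes GLUT4, the insulin-responsive glucose transporter of fat and muscle. It had the fewest reads of the 7, with 13.02 and 15.2 estimated counts in HFD SM, 36.04 and 24.89 in HFD ARM, 8 and 3 in ND SM and 18 and 14 in ND ARM. The ARM libraries lay above the SM libraries in both diets. The log2 fold change of Slc2a4 was 1.14 on HFD (SE 0.36, 95% interval 0.34 to 1.94, adjusted p 0.078) and 1.51 on ND (SE 0.56, 95% interval 0.32 to 2.70, adjusted p 0.176) (edgeR, quasi-likelihood), so neither was called. With at least 10 counts required in every library, Slc2a4 passed on HFD, at 1.15 with an edgeR adjusted p of 0.0438. On ND the value moved with single libraries, to 2.40 (edgeR adjusted p 0.392) without ND SM replicate 1 and to 0.94 (0.745) without ND SM replicate 2.

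Slc2a1, the broadly expressed glucose transporter GLUT1, was more abundant than Slc2a4 in each library, at 7.61 to 59.8 times its TPM. Slc2a1 had 6.86 and 10.8 TPM in HFD SM and 11.3 and 15.0 in HFD ARM, and was not called in either diet. The highest level among the transporters examined beside it was that of Slc2a8, at 17.0 to 20.7 TPM over the 8 libraries, again with no call.

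Pde3b (Entrez 18576, chr7:114415222-114537938, plus strand) encodes the phosphodiesterase through which insulin lowers cAMP in adipocytes. It had 48.7 and 47.7 TPM in HFD SM and 45.4 and 42.6 in HFD ARM, the ARM libraries lying slightly below. On ND it had 42.1 and 48.0 TPM in SM and 44.3 and 47.8 in ARM, and these groups overlapped. Fitted log2 fold changes of Pde3b were -0.14 on HFD (95% interval -0.28 to 0.01, edgeR adjusted p 0.255) and 0.00 on ND (-0.21 to 0.22, edgeR adjusted p 0.996). Both intervals leave out a 1.5-fold change. Pde3b exceeded its paralog Pde3a, at 0.11 to 0.87 TPM, by 48.9 to 383 times.

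In all, the ARM and SM libraries did not overlap in CPM for 6 of the 7 genes on HFD, 4 with ARM above (Irs1, Igf1r, Ghr and Slc2a4) and 2 with ARM below (Irs2 and Pde3b). This compares with 52.7% of all genes tested on HFD. On ND they did not overlap for 2 of the 7 (Ghr and Slc2a4, both with ARM above), against 44.0% of all genes tested. With 2 libraries in each group, absence of overlap is thus common among genes at large.

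The order of the levels was nearly the same in the 4 groups. By mean TPM, Irs2 was the highest of the 7 (72.2 to 89.2 over the groups), followed by Pde3b (44.0 to 48.2), Insr (20.7 to 24.5), Igf1r (11.4 to 14.4) and Ghr (1.46 to 9.32), and no pair of neighbors in this order overlapped in any group. Irs1 and Slc2a4 were last. They overlapped with each other in the SM groups of both diets, while in the ARM groups Slc2a4 (0.88 on ND, 1.25 on HFD) lay above Irs1 (0.51 and 0.855). By mean TPM, Irs2 stood above 88.4% to 90.4% of all genes in a table. Ghr stood above 35.9% of genes in HFD SM, 55.0% in HFD ARM, 39.2% in ND SM and 46.3% in ND ARM.

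HFD and ND libraries were deposited in separate tables that were not made in the same way, so diet and table cannot be told apart and no test was made between them. In SMs the mean TPM of Ghr differed by -1.12 on the log2 scale (HFD over ND), by -1.19 in FPKM and by -0.59 in CPM, and in ARMs by 0.47, 0.45 and 0.53. The HFD SM libraries lay below the ND SM libraries on all 3 scales, and the HFD ARM libraries above the ND ARM libraries. The Irs1 values lay higher in the HFD table in both cell types, by 0.71 in SM and 0.75 in ARM on the log2 TPM scale, as did those of Igf1r by 0.25 and 0.22. Irs2 differed by 0.07 in SM, where the libraries overlapped, and by -0.31 in ARM, where the HFD libraries lay below.

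The other genes of these pathways were read from lists of 111 genes. On HFD 104 were tested, of which 7 (6.73%, against 4.46% of all genes) were called higher and 0 lower, and on ND 101 were tested, of which 8 (7.92%, against 3.55%) were called higher and 1 lower. At an unadjusted edgeR p under 0.05 were 28.8% of them on HFD and 24.8% on ND, against 23.2% and 14.9% of all genes tested. Their median log2 fold change was -0.02 on HFD and 0.07 on ND. The 9 calls on ND came to 3 without ND ARM replicate 2 and to 5 without ND SM replicate 1. None of 106 was called by edgeR for a difference between diets, with 16 (15.1%, against 7.61% of all genes) at an unadjusted p under 0.05 and 2 called by DESeq2.

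**Figure D5:**
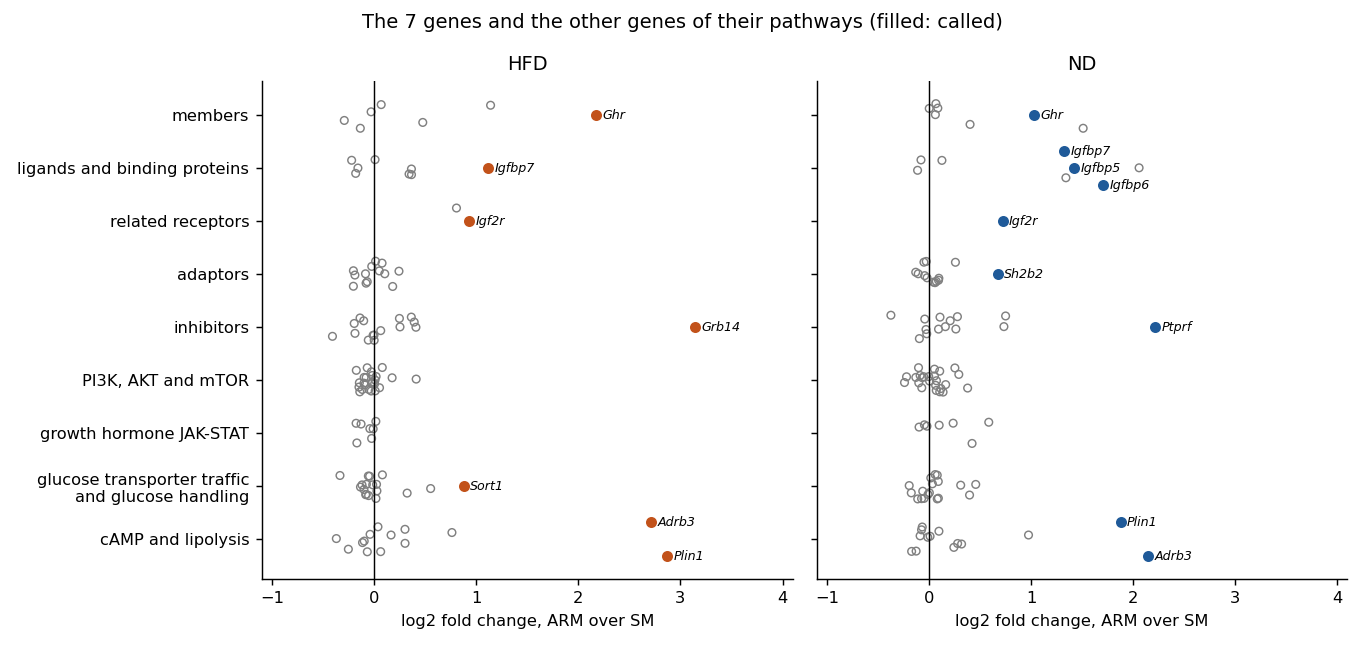
Log2 fold change of ARM over SM on HFD (left) and ND (right) for the 7 genes (members) and the other tested genes of 8 pathway lists, apart from 2 list genes that are not shown. Filled points were called and are named, open points were not. The lists of PI3K, AKT and mTOR genes and of growth hormone JAK-STAT genes hold no filled point in either diet.

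Downstream of Ghr, none of the 7 genes listed for growth hormone JAK-STAT signaling was called in either diet by edgeR or DESeq2, with 1 at an unadjusted p under 0.05 on HFD and 2 on ND. Jak2, the kinase bound to the receptor, had 24.3 and 29.0 TPM in HFD SM and 24.7 and 27.6 in HFD ARM. The STAT5 target Socs2 had 4.18 and 4.25 TPM in HFD SM and 3.50 and 4.03 in HFD ARM. On ND its direction was the opposite, with 2.19 and 2.69 TPM in SM and 2.69 and 4.54 in ARM. The log2 fold change of Socs2 was -0.17 on HFD and 0.59 on ND, with edgeR adjusted p of 0.64 and 0.431. Igf1, which growth hormone induces in liver and other tissues, was abundant in all libraries, at 183 to 195 TPM on HFD and 150 to 185 on ND, with log2 fold changes of 0.01 and -0.08.

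Among ligands and binding proteins, Igfbp7, a secreted binding protein with low affinity for IGFs, was called higher in both diets (log2 fold change 1.12 on HFD and 1.33 on ND). Igfbp5 (1.42) and Igfbp6 (1.71) were called higher on ND, where their HFD values were 0.34 and 0.37. The Igfbp6 difference between diets was -1.36, with an edgeR adjusted p of 0.0993, and did not pass. With DESeq2 (1.44, adjusted p 0.245) or limma on log2(TPM + 1) (1.20, adjusted p 0.0735), Igfbp5 was no longer called on ND. The same held in edgeR without ND ARM replicate 2 (0.92), while without HFD SM replicate 1, Igfbp6 was called on HFD (0.62). Igfbp4 was the most abundant of those examined, at 567 to 708 TPM, and was not called. On ND, 6 of 8 fibroblast and progenitor markers (summed level 200 and 256 CPM in SM, 554 and 790 in ARM) and 5 of 6 mesothelial markers (9.37 and 13.5 CPM, 34.2 and 47.6 CPM) were called higher as well. On HFD, where Igfbp7 was called, so were 5 of the 8 fibroblast and progenitor markers and none of the 6 mesothelial ones. Endothelial markers were called higher for 8 of 9 on HFD and 1 of 9 on ND. Those of pericytes and smooth muscle were called higher for 4 of 7 and 2 of 6. The part of these markers in the binding protein values was not tested.

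Igf2r, which binds IGF-2 for degradation and sorts lysosomal enzymes, was called higher in both diets, at 0.93 on HFD and 0.72 on ND. The HFD call was lost with no filter (0.93, edgeR adjusted p 0.0642). With limma on log2(TPM + 1) the ND call was lost (0.635, adjusted p 0.204). It was also lost without ND ARM replicate 2 (0.31) or without ND SM replicate 1 (0.63). Of the adaptors, Sh2b2, an adaptor phosphorylated by the insulin receptor, was called higher on ND (0.67) with a value of 0.18 on HFD.

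The inhibitors held 1 call in each diet. Grb14, which encodes an adaptor that blocks the insulin receptor kinase, had 1 and 2 counts in HFD SM and 12 and 16 in HFD ARM. The ratio of its summed counts at equal depth was 9.67 with an exact counting interval of 2.99 to 49.7, and the call was lost with DESeq2 (edgeR adjusted p 0.015, DESeq2 0.0993) and in edgeR without HFD ARM replicate 1 (0.0904), HFD ARM replicate 2 (0.164) or HFD SM replicate 1 (0.0831). Ptprf, a receptor-type tyrosine phosphatase, had 4 and 9 counts in ND SM and 28 and 33 in ND ARM and was called there (2.22), with 0.39 and no call on HFD. The Ptprf call was lost without ND ARM replicate 2 (edgeR adjusted p 0.139) or ND SM replicate 1 (0.267). None of the 24 PI3K, AKT and mTOR genes was called in either diet by edgeR or DESeq2, with 4 on HFD and 2 on ND at an unadjusted p under 0.05. Akt2, the AKT form prominent in insulin action, had 125 and 132 TPM in HFD SM and 120 and 119 in HFD ARM.

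Of the genes for glucose transporter traffic, Sort1, which encodes the sorting receptor sortilin, was called higher on HFD (0.88), with 0.46 on ND and an edgeR adjusted p of 0.0684, which became 0.62 and 0.023 without ND ARM replicate 1. Tbc1d4, an AKT substrate that holds back GLUT4 vesicles, had -0.34 on HFD with an edgeR adjusted p of 0.0159, inside the 1.5-fold limit. The lipase genes Lipe and Pnpla2 each had 0.30 on HFD, also inside that limit (edgeR adjusted p 0.0222 and 0.0135). Of the cAMP and lipolysis genes, Plin1, the coat protein of adipocyte lipid droplets, was called higher in both diets (2.87 and 1.88), as was Adrb3, the adipocyte beta-adrenergic receptor (2.71 and 2.15). Both are also in the list of adipocyte markers. On ND, Plin1 was no longer called without ND ARM replicate 2 (1.12, edgeR adjusted p 0.271) or ND SM replicate 1 (1.71, 0.0663). Adrb3 was no longer called on HFD without HFD ARM replicate 2 (2.70, edgeR adjusted p 0.0532), nor on ND without ND ARM replicate 2 (1.95, 0.223), ND SM replicate 1 (1.71, 0.457) or ND SM replicate 2 (2.82, 0.0953).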

How the data were processed

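RNA was extracted from sorted cells with Trizol. For each diet the authors deposited 1 table with an estimated count, an FPKM and a TPM per gene and library. The submitters' processing notes name mm10. The aligner, counter and annotation are not given in the sources used here. Of the genes, 32.3% to 32.9% had counts that were not whole (tolerance 0.001) in the HFD libraries and 8.55% to 9.36% in the ND libraries. The columns of group averages in these tables were not used.

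After rounding, counts were fitted per diet with edgeR 4.0.16 in R 4.3.3 (TMM, filterByExpr, quasi-likelihood test, Benjamini-Hochberg adjustment). The difference between diets came from 1 fit of all 8 libraries. The biological coefficient of variation was 5.55% on HFD and 8.61% on ND, and replicates differed by more than sampling noise (mean chi-square per gene 4.22 to 10.2). Alternatives used DESeq2 1.42.0, limma 3.58.1, other filters, scalings and thresholds, a replicate block and left-out libraries. Figures used Python 3.11.15 and matplotlib 3.10.9. The pipeline was tested on simulated data. Intervals for counts cover counting error only.

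The members and gene lists were chosen with earlier results of these data known. Named were the 7 genes, list genes called in any comparison (2 of them, counted in the totals, are not reported here), paralogs, and the 3 genes most like a called member. Igf1, Igfbp4, Jak2, Socs2, Akt2, Tbc1d4, Lipe and Pnpla2 were added for their role after their values were seen. Coordinates came from RefSeq (GRCm38.p6), overlaps and transcript lengths from GENCODE, and promoters from RefSeq, where 4 of the 7 genes matched.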

Additional observations from a re-analysis of the deposited data

Results flagged for a closer look

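Neither Ghr nor any other of the 7 genes passed the test of the difference between diets. Of the adipocyte markers set beside Ghr, 2 did, each rising more from SM to ARM on HFD than on ND. Lep, the hormone leptin, had a difference of 1.80 on the log2 scale (SE 0.31, edgeR adjusted p 0.038), from a log2 fold change of 2.98 on HFD and 1.17 on ND. Plin4, a lipid droplet coat protein, had a difference of 1.92 (SE 0.33, edgeR adjusted p 0.0389), from 3.06 and 1.13. The adjustment was made over 13358 genes, of which edgeR called 22. Both calls rested on single libraries. Each was lost when any of 6 of the 8 libraries was left out, that is HFD ARM replicate 1 or 2, HFD SM replicate 1 or 2, or ND SM replicate 1 or 2, with edgeR adjusted p from 0.0654 to 0.242 for Lep and from 0.0776 to 0.206 for Plin4. Over all 8 left-out libraries the difference stayed above 0, from 1.48 to 2.10 for Lep and from 1.62 to 2.36 for Plin4. Both kept the call with DESeq2.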

How the results depend on the processing

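The call of Ghr on HFD and the directions of Ghr, Irs1, Irs2, Igf1r and Slc2a4 within each diet held in all alternatives run. The members called were 2 on HFD and 2 on ND with the threshold of the study's methods (log2 fold change beyond 0.6 and unadjusted p under 0.05), which added Slc2a4, and 2 on HFD with at least 10 counts in every library. On ND the count was 0 with DESeq2 and 0 with limma on log2(TPM + 1). All genes called were 634 on HFD, 458 on ND and 22 for the difference between diets. They became 181 (HFD) and 41 (difference) with no filter, 1017 (HFD) and 888 (ND) with the threshold of the study's methods, 280 (ND) and 94 (difference) with DESeq2, and 256 (ND) with limma. Pathway list genes called went from 7 on HFD to 4 with no filter, and from 9 on ND to 4 with limma.

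Leaving out 1 library at a time gave 214 to 637 calls over all genes on HFD, 188 to 661 on ND and 0 to 102 for the difference, the lowest without HFD ARM replicate 2, ND ARM replicate 2 and ND SM replicate 2. The lone library left in a group was taken to vary like those of the other groups. Members called ran from 0 to 1 on ND and from 0 to 1 for the difference, and pathway list genes from 3 to 12 on ND. Values near 0 changed sign. On HFD, Insr ran from -0.126 to 0.0643 and Igfbp5 from -0.0707 to 0.668, and on ND, Insr ran from -0.0289 to 0.158 and Pde3b from -0.0793 to 0.0862. For the difference between diets the ranges were -0.207 to 0.0138 for Insr, -0.46 to 0.47 for Irs1, -0.105 to 0.0805 for Igf1r and -1.25 to 0.20 for Slc2a4. Pde3b on ND was -0.00155 with library totals and -0.00676 with no filter, and the difference of Igf1r was 0.0141 with library totals. The cause of these moves was not tested.

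Same-numbered ARM and SM libraries were not shown to be pairs: the correlation of their deviations across genes was -0.0284 on HFD and 0.221 on ND, with 2 pairs in each. With a replicate block the calls were 786 over all genes, 14 in the pathway lists and 2 members (Ghr and Slc2a4) on ND, and 187 for the difference. The replicate block left 1 member called on HFD. Slc2a4 and Irs1 had 3 to 76 counts a library and the widest intervals of the 7 genes in each diet.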
